A study of Mus musculus with 8 samples.

Results

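The Notch pathway genes described here are the receptors Notch1, Notch2 and Notch4, the ligands Jag1 and Dll4, the protease Adam10, the nuclear DNA-binding protein Rbpj, the target genes Hes1 and Hey1, and the E3 ubiquitin ligase gene Dtx4. They were chosen by name, with earlier results of these data known, so their counts beside those of all probe sets are a description only. Every probe set annotated to 1 of these symbols was taken, which gave 23 of the 45037 probe sets tested, for 10 of 18193 named genes. RNA of mouse bone marrow-derived macrophages (BMDM) was hybridized to Affymetrix Mouse 430 2.0 arrays, which read each transcript with 1 or more probe sets. M1 cells (3 arrays) received lipopolysaccharide (LPS, 100 ng/ml) with interferon-γ (IFN-γ, 20 ng/ml). M2 cells (2 arrays) received interleukin 4 (IL-4, 20 ng/ml), and M0 cells (3 arrays) received medium with no stimulus.

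All cells came from wild-type C57BL/6J mice, had been grown from marrow with L929 cell supernatant, a source of macrophage colony-stimulating factor, were replated on day 7 without it, and were lysed 24 hours after stimulation. The age and sex of the mice were not given in the sources used here. M0 is therefore a culture from which the growth factor had been withdrawn, as it was from M1 and M2. The arrays are labelled as biological replicates, with titles that carry the same replicate numbers across conditions. The study's methods speak of independent mice and also of in vitro replicates. Whether arrays of different conditions share a mouse is not stated in the labels. Every n is therefore a number of arrays, and every p-value measures the spread between arrays. In a bulk RNA, fewer cells that express a gene and less of its RNA per cell cannot be told apart.

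Notch receptors are single-pass membrane proteins that are bound by Delta-like or Jagged ligands on a neighbouring cell. Ligand binding lets the metalloprotease Adam10 cut the receptor outside the membrane, after which the γ-secretase complex cuts it within the membrane and frees its intracellular domain. That domain enters the nucleus, where it joins Rbpj and a Mastermind coactivator on DNA and switches on genes such as Hes1 and Hey1, which encode transcriptional repressors. Without it, Rbpj sits with corepressors. In macrophages, Notch receptors and ligands are known to respond to ligands of Toll-like receptors, of which LPS is one.

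Promoter sequences are shown for 3 members on which the results below turn: Notch1 and Jag1, the receptor and ligand with the largest changes among the members, and Rbpj, which was higher in both stimulated conditions. RefSeq promoter windows (build GRCm38.p6) matched 7 of the 10 genes, in 8 windows. Hes1, Hey1 and Dtx4 were not matched. Each sequence is the 250 bases before the annotated transcript start, 5′ to 3′ on the gene's own strand, for Notch1 at chr2:26503823-26504072 (minus strand), for Jag1 at chr2:137116521-137116770 (minus strand) and for Rbpj at chr5:53590096-53590345 (plus strand). Capitals mark TGGGAA, the core bound by Rbpj, or its reverse complement TTCCCA.
Notch1: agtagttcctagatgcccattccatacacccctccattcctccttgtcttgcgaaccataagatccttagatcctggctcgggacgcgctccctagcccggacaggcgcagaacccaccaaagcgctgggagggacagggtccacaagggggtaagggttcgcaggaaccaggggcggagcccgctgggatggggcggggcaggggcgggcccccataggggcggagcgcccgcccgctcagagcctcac
Jag1: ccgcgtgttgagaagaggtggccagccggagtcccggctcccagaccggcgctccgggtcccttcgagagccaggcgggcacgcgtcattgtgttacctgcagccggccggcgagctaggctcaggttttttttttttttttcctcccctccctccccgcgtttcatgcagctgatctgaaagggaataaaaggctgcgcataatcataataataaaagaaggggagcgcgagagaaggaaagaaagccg
Rbpj: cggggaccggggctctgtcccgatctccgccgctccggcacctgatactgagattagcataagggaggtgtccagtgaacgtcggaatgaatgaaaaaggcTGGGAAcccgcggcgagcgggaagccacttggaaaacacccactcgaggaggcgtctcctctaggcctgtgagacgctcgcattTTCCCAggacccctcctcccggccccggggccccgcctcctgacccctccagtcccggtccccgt

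The Rbpj window held TGGGAA on the gene's strand at 149 to 144 bases before the start and on the other strand at 65 to 60 bases before it. The second Rbpj window, chr5:53590236-53590485, overlaps the first and held the second of these sites alone, at 205 to 200 bases before its own start. None of the other 6 windows, those of Notch1, Notch2, Notch4, Jag1, Dll4 and Adam10, held TGGGAA on either strand. Over all 32851 promoter windows of this length, 21.6% held the motif at least 1 time and 2.77% at least 2 times. These are matches of letters in a window and no measure of binding.

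The arrays were even in signal, with medians of 38.9 to 40.4 units and 39.8 to 40.6% of probe sets above 64 units, and log2 values correlated at 0.994 to 0.997 within a condition and at 0.965 to 0.983 between conditions. Of 8 macrophage markers, all 8 were above 64 units on all 8 arrays, but their levels differed: 1 was higher and 2 were lower in M1, and 5 (Adgre1, Mertk, Fcgr1, Cd14 and Lyz2) were lower in M2, with sums of 75999.3 to 77619.2 units in M1, 53162.6 to 56860.8 units in M2 and 78572.2 to 81227.6 units in M0. All 5 M1 markers were higher in M1, with sums of 12827.7 to 20035.0 units in M1, 224 to 355 units in M2 and 194 to 220 units in M0. All 5 M2 markers were higher in M2, with sums of 119 to 143 units in M1, 30721.0 to 32413.8 units in M2 and 2057.5 to 3157.7 units in M0. Endothelial cells, which express Notch4 and Dll4, were read with 9 markers, whose summed level was 320 to 370 units in M1, 323 to 341 units in M2 and 331 to 341 units in M0, with 1 marker above 64 units on all arrays. By limma 0 of these 9 were called against M0 in M1 or M2, with 1 in M1 and 0 in M2 at an unadjusted p under 0.05. The methods' t-test, run here on log2 values, called 0. Fibroblasts and stromal cells were read with 7 markers, of which 2 (Dcn and Lum) were higher in M1, with sums of 243 to 389 units in M1, 203 to 297 units in M2 and 180 to 218 units in M0. Of the markers of T cells, B cells, neutrophils, dendritic cells and mast cells, Cd79b was lower in M1 (-0.92, adjusted p 0.00647), and Camp was higher in M1 (0.56, adjusted p 0.00544) and lower in M2 (-0.48, adjusted p 0.0385). The part of any of these in the results was not tested.

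Of the 23 member probe sets, 9 were higher in M1 than in M0 and 0 were lower, at an adjusted p under 0.05 in limma, with Benjamini-Hochberg adjustment over all 45037 probe sets. Over all probe sets the same test called 10.2% higher and 10.2% lower in M1. The called probe sets were all 3 of Jag1, both of Notch1, all 3 of Rbpj and 1 of 2 of Dtx4. At an unadjusted p under 0.05 in limma the counts were 11 higher and 0 lower. The share of all probe sets at that limit was not counted, for this or any other unadjusted count. The methods' t-test on log2 values called 2588 higher and 2460 lower of all 45037 probe sets after adjustment. Among the member probe sets it called 5 higher and 0 lower. Those 5 were both of Notch1, 1 of Jag1, 1 of Dtx4 and 1 of Notch2, the last of which limma did not call. The median log2 fold change was 0.22 over the members, against 0.01 over all probe sets. With a change of at least 2-fold also required, 3 member probe sets were called (1 of Notch1 and 2 of Jag1), against 4.56% of all. Probe sets of the same gene are not independent readings. By the brightest probe set of each gene, 3 of the 10 genes (Notch1, Jag1 and Rbpj) were higher and 0 lower. Over all named genes 13.7% were higher and 11.5% lower.

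In M2 against M0, 4 member probe sets were higher (all 3 of Rbpj and 1 of Dtx4) and 2 were lower (1 of Notch1 and 1 of Jag1), while 17 did not pass the test. The background was 6.32% higher and 5.85% lower. By brightest probe set, 2 of the 10 genes (Rbpj and Dtx4) were higher and 2 (Notch1 and Jag1) lower. The other Dtx4 probe set went the other way, at -0.37 (adjusted p 0.0632), so Dtx4 is counted here by its brightest probe set alone. Over all named genes 8.03% were higher and 6.43% lower. None of the members changed 2-fold (0 of 23), against 2.85% of all probe sets, and the median log2 fold change was 0.10, against 0.01 over all. The M2 counts rest on 2 arrays: without M2 replicate 1, 2 member probe sets were called, and without M2 replicate 2, again 2. The methods' t-test called 0 in M2 after adjustment, with 3 higher and 4 lower at an unadjusted p under 0.05.

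In M1 against M2, 7 member probe sets were higher, against 8.87% of all, and 0 were lower, against 10.1% of all, with 7 higher and 2 lower at an unadjusted p under 0.05. Of these, 4 (both of Notch1 and 2 of Jag1) changed at least 2-fold, against 5.59% of all. The methods' t-test on log2 values called 1 higher and 0 lower after adjustment, against 774 higher and 752 lower of all 45037 probe sets. By brightest probe set, limma called 3 of the 10 genes higher and 0 lower, against 2084 higher and 2240 lower of all 18193 named genes. M0 arrays are shared by the M1 and M2 comparisons, and M1 and M2 arrays by this one, so the 3 comparisons are not independent.

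**Figure D1:**
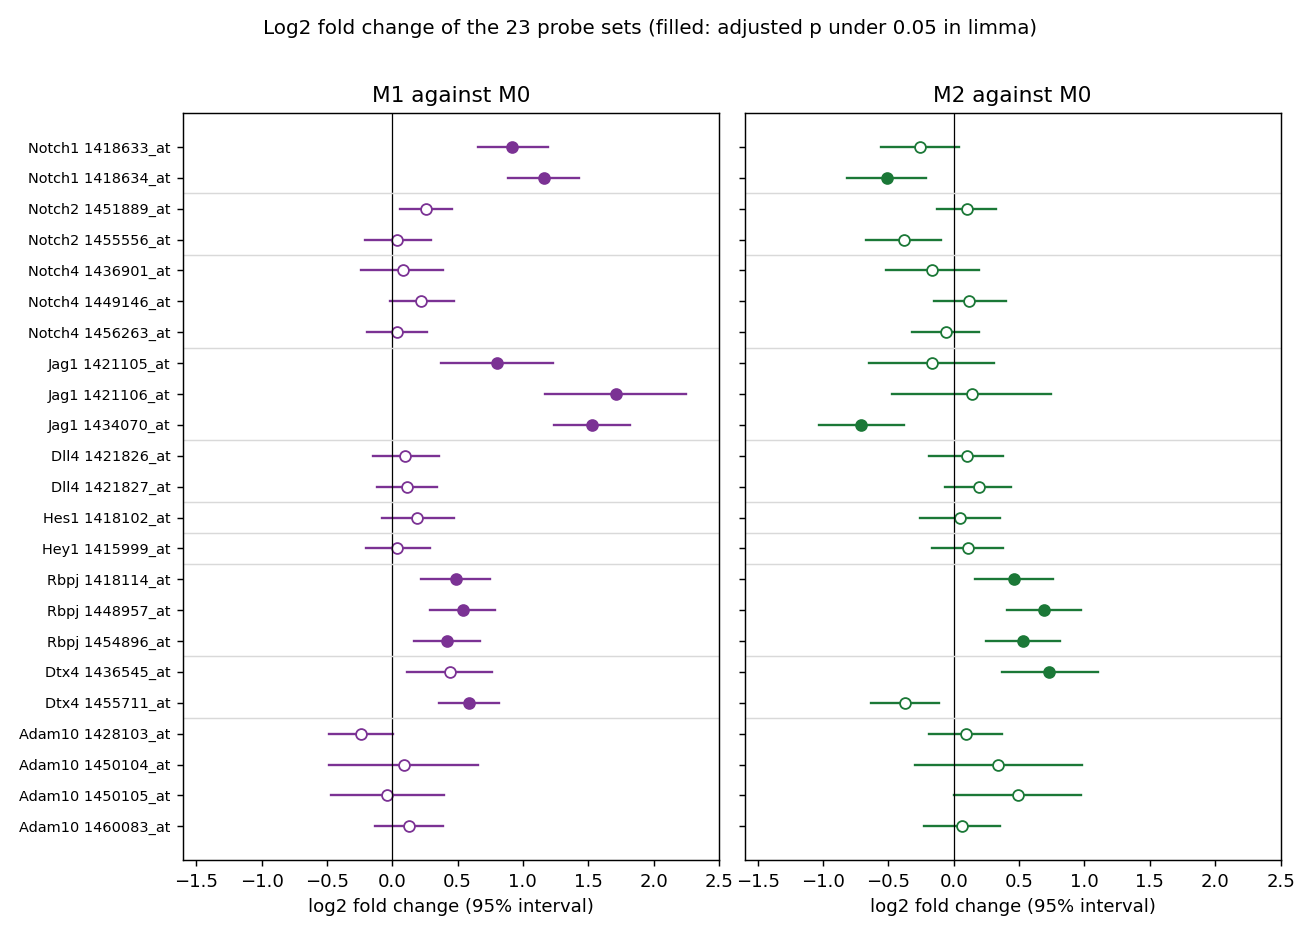
Log2 fold change of each of the 23 member probe sets in M1 against M0 and in M2 against M0 (x axis, log2 units), with 1 row for each probe set (y axis), the 95% interval of the limma fit as a bar, and filled points at an adjusted p under 0.05. The 3 Jag1 and 2 Notch1 probe sets lie on the positive side in M1, all 3 Rbpj probe sets lie on the positive side in both conditions, and the Notch4, Dll4, Hes1, Hey1 and Adam10 intervals span 0 or touch it.

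Notch1, the receptor needed for T-cell fate, was higher in M1 than in both other conditions. Its brighter probe set, 1418634_at, gave 1074.8, 1413.7 and 1491.9 units in M1, 414 and 411 units in M2, and 615, 584 and 569 units in M0. The 3 conditions did not overlap: every M1 array was above every M0 array, and both M2 arrays were below all 3. The means were 1326.8 ± 222 units in M1, 412 ± 2.19 units in M2 and 589 ± 23.4 units in M0 (SD, n = 3, 2 and 3). The log2 fold change in M1 against M0 was 1.16 (SE 0.12, 95% interval 0.89 to 1.43, adjusted p 2.7e-05), which is 2.23-fold, and in M1 against M2 it was 1.67 (SE 0.14, adjusted p 2.7e-06).

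In M2, Notch1 was lower than in M0, with a log2 fold change of -0.51 (SE 0.14, 95% interval -0.82 to -0.21, adjusted p 0.0296). The call was lost whichever of the M0 or M2 arrays was left out. It was then -0.48, -0.52 and -0.54 without M0 replicate 1, 2 and 3 (adjusted p 0.0841, 0.079 and 0.0574), and -0.52 and -0.51 without M2 replicate 1 and 2 (adjusted p 0.122 and 0.124). The size of the difference moved little, and the adjusted p crossed the threshold each time.

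The second Notch1 probe set, 1418633_at, gave 258, 196 and 256 units in M1, 110 and 97.3 units in M2, and 126, 117 and 129 units in M0. The order of the conditions was the same as for the first, again without overlap, and its log2 fold change in M1 against M0 was 0.92 (SE 0.12, adjusted p 1.4e-04). In M2 against M0 it was -0.26 (adjusted p 0.282), which did not pass the test. Over the 8 arrays the log2 values of the Notch1 probe sets correlated at 0.93.

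Notch2, the receptor needed for marginal zone B cells, showed no difference between M1 and M0 that passed the limma test. Probe set 1455556_at gave 1008.4, 892 and 931 units in M1, 646 and 759 units in M2, and 802, 923 and 1031.1 units in M0. M1 lay within the M0 range, and both M2 arrays were below all the others. The means were 944 ± 59.4 units in M1, 702 ± 79.6 units in M2 and 919 ± 115 units in M0 (SD, n = 3, 2 and 3). On the log2 scale the difference was 0.04 in M1 against M0 (95% interval -0.21 to 0.30, adjusted p 0.863) and -0.38 in M2 against M0 (95% interval -0.67 to -0.10, adjusted p 0.0845), a comparison that passed only without M0 replicate 1 (-0.48, adjusted p 0.0464).

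Between the stimulated conditions Notch2 was higher in M1 than in M2 by 0.43 on the log2 scale (adjusted p 0.0388). That call did not stand without M0 replicate 2 (0.43, adjusted p 0.0626), M1 replicate 1 (0.38, adjusted p 0.119), M1 replicate 3 (0.44, adjusted p 0.0661) or M2 replicate 1 (0.31, adjusted p 0.266). The dimmer Notch2 probe set, 1451889_at, ran from 44.2 to 57.4 units over the 8 arrays and was higher in every M1 array than in any other. Its log2 fold change in M1 against M0 was 0.26 (adjusted p 0.0637), which did not pass in limma but did in the methods' t-test (adjusted p 0.0388), after median centring (0.29, adjusted p 0.0414) and after a further quantile normalization (0.30, adjusted p 0.0331). Its correlation with the brighter probe set over the arrays was 0.10.

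Notch4, a receptor of endothelial cells, was dim throughout. Its 3 probe sets gave 7.51 to 17.4 units and stayed below the array's median on all 8 arrays. The brightest, 1456263_at, gave 14.7, 13.2 and 16.7 units in M1, 13.8 and 13.7 units in M2, and 14, 14.7 and 14.3 units in M0. None of the 3 passed the test in M1 or M2 against M0, and for the brightest the log2 fold change in M1 was 0.04 (95% interval -0.19 to 0.27, adjusted p 0.862). Between the stimulated conditions, 1436901_at gave 0.25 in M1 against M2 (adjusted p 0.371), or 0.43 without M1 replicate 2 (adjusted p 0.0365).

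**Figure D2:**
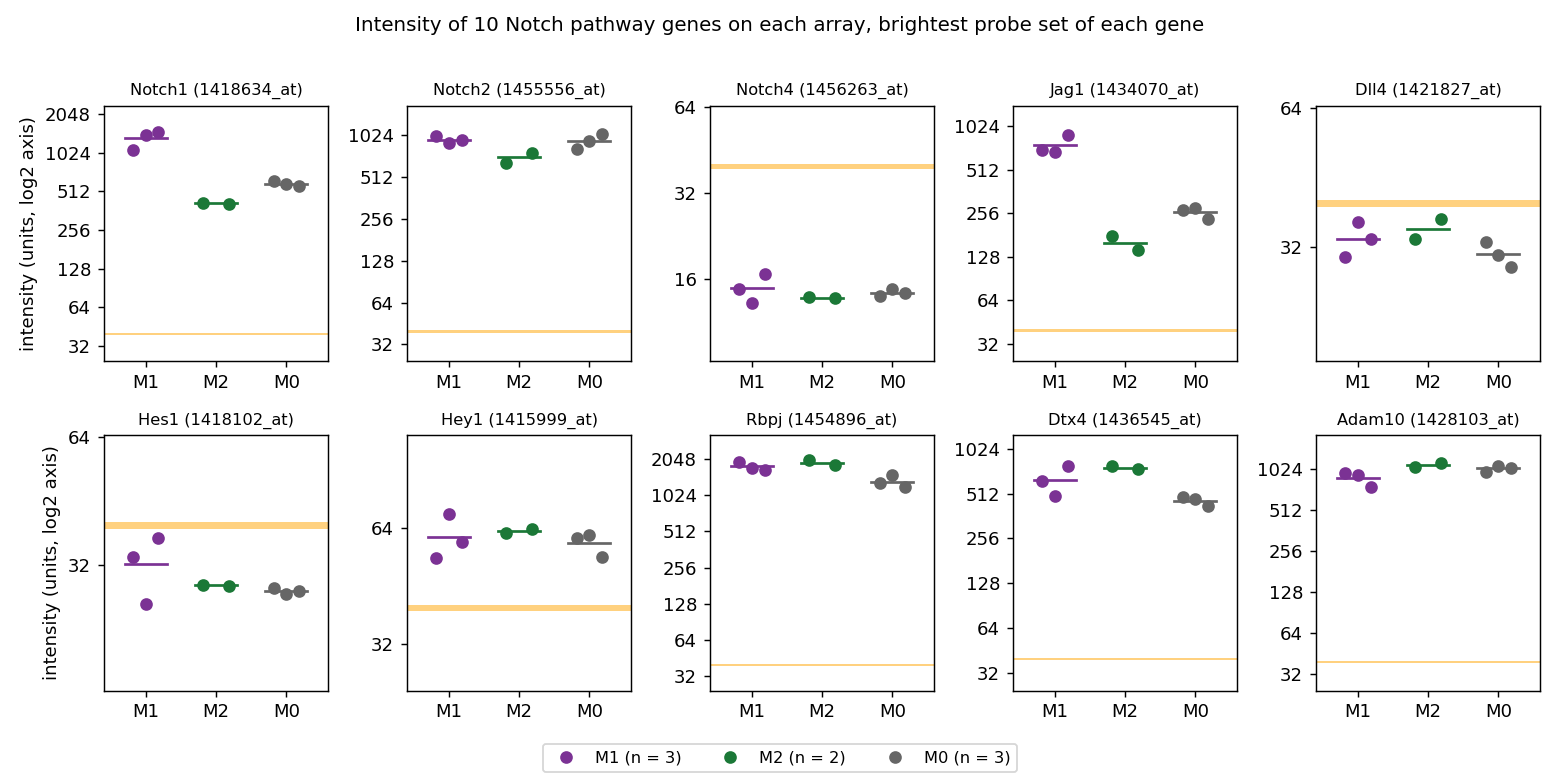
Intensity (y axis, units, log scale) of the brightest probe set of each of the 10 genes on each array in M1 (3 arrays), M2 (2 arrays) and M0 (3 arrays), with points for arrays, a line at the arithmetic mean of each condition, and a band over the range of array medians, 38.9 to 40.4 units. Notch1 and Jag1 have all M1 points above the M0 points and all M2 points below them, Rbpj has M1 and M2 points above the M0 points, and Notch4, Dll4 and Hes1 lie below the band on every array.

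Jag1, a membrane ligand of Notch receptors, had the largest log2 difference in M1 among the members. Probe set 1434070_at gave 697, 678 and 883 units in M1, 177 and 142 units in M2, and 271, 278 and 232 units in M0. The conditions did not overlap, with M1 above and M2 below M0. The means were 753 ± 114 units in M1, 160 ± 24.7 units in M2 and 260 ± 25 units in M0 (SD, n = 3, 2 and 3). The log2 fold change in M1 against M0 was 1.53 (SE 0.13, 95% interval 1.24 to 1.82, adjusted p 5.3e-06), a 2.88-fold difference, and in M1 against M2 it was 2.23 (SE 0.15, adjusted p 4.0e-07), or 4.7-fold.

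In M2, Jag1 by this probe set was lower than in M0, with a log2 fold change of -0.71 (SE 0.15, 95% interval -1.03 to -0.38, adjusted p 0.00796). Without M2 replicate 2, the lowest array, it was -0.55 with an adjusted p of 0.0958. The other Jag1 probe sets gave no M2 difference that passed the test, at -0.17 for 1421105_at (adjusted p 0.723) and 0.14 for 1421106_at (adjusted p 0.833). In both, 1 M2 array lay within the M0 range, so a lower Jag1 level in M2 was called in 1 of 3 probe sets.

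The M1 difference of Jag1 was called by limma in all 3. Probe set 1421106_at gave 120, 71.1 and 138 units in M1, 45.1 and 27.9 units in M2, and 25.3, 33.4 and 39.5 units in M0, where it was below the median of each array. Its log2 fold change in M1 against M0 was 1.71 (SE 0.25, adjusted p 3.0e-04). Probe set 1421105_at gave 85.6, 64.2 and 122 units in M1, 52.5 and 38.1 units in M2, and 47.6, 49.1 and 54.7 units in M0. M1 replicate 2 was the lowest M1 array in all 3 probe sets and still above every M0 and M2 array. For 1421105_at the log2 fold change was 0.80 in M1 against M0 (SE 0.20, adjusted p 0.0117) and 0.97 in M1 against M2 (adjusted p 0.0077). Without M2 replicate 2 the difference from M2 was 0.74 (adjusted p 0.104), which did not pass. Against M0, the M1 calls of the dimmer pair were lost in the methods' t-test (adjusted p 0.0611 for 1421106_at and 0.174 for 1421105_at) and with values under 64 units set to 64, where the log2 fold changes were 0.72 (adjusted p 0.202) and 0.45 (adjusted p 0.466). The Jag1 probe sets correlated at 0.88 to 0.95 with each other over the 8 arrays.

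Dll4, the Delta-like ligand of blood vessels, was dim and did not differ beyond the spread between arrays. Probe set 1421827_at gave 30.4, 36.1 and 33.2 units in M1, 33.3 and 36.7 units in M2, and 32.7, 30.7 and 28.9 units in M0. Both Dll4 probe sets were below the array's median on all 8 arrays. For 1421827_at the log2 fold change was 0.11 in M1 against M0 (95% interval -0.12 to 0.34, adjusted p 0.564) and 0.19 in M2 against M0 (95% interval -0.07 to 0.44, adjusted p 0.383). The other, 1421826_at, ran from 24.7 to 32.4 units, with 0.10 in M1 (adjusted p 0.648) and 0.10 in M2 (adjusted p 0.733).

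Adam10, the metalloprotease that makes the first cut after ligand binding, had 4 probe sets, none of which passed the test in M1 or M2 against M0. The brightest, 1428103_at, gave 967, 936 and 754 units in M1, 1072.6 and 1136.1 units in M2, and 981, 1079.2 and 1053.7 units in M0. All M1 arrays were below all M0 arrays, the nearest by little, and the M2 arrays overlapped them. Its log2 fold change was -0.24 in M1 against M0 (95% interval -0.48 to 0.01, adjusted p 0.19) and 0.09 in M2 against M0 (95% interval -0.19 to 0.37, adjusted p 0.747).

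Adam10 varied widely within M0 in the probe sets of middle intensity. Probe set 1450104_at gave 344, 222 and 247 units in M1, 304 and 329 units in M2, and 151, 282 and 369 units in M0. Probe set 1450105_at gave 448, 324 and 328 units in M1, 484 and 560 units in M2, and 271, 376 and 504 units in M0. M0 replicate 1 was the lowest M0 array in both, and in M1 replicate 1 was the highest. The log2 fold change of 1450105_at in M2 against M0 was 0.49 (95% interval 0.00 to 0.97, adjusted p 0.205), and without M0 replicate 3 it was 0.71 (adjusted p 0.0422). The fourth probe set, 1460083_at, ran from 21.2 to 29.5 units, below the array's median throughout. Correlations between Adam10 probe sets over the arrays ran from -0.76 to 0.91.

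Rbpj, the DNA-binding protein through which all Notch receptors act, was higher in M1 and in M2 than in M0. Its promoter window shown above held 2 TGGGAA matches and those of Notch1 and Jag1 held 0. A link between the motif and these levels was not tested. Probe set 1454896_at gave 1917.5, 1725.5 and 1669.0 units in M1, 2007.3 and 1809.7 units in M2, and 1280.3, 1506.9 and 1183.7 units in M0. Every M1 and M2 array was above every M0 array, while M1 and M2 overlapped. The means were 1770.6 ± 130 units in M1, 1908.5 ± 140 units in M2 and 1323.6 ± 166 units in M0 (SD, n = 3, 2 and 3).

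The log2 fold change of 1454896_at was 0.42 in M1 against M0 (SE 0.11, 95% interval 0.17 to 0.67, adjusted p 0.019) and 0.53 in M2 against M0 (SE 0.13, 95% interval 0.25 to 0.81, adjusted p 0.0168). In M1 against M2 it was -0.11, with a 95% interval of -0.39 to 0.17 (adjusted p 0.66). The M1 call did not stand without M0 replicate 1 (0.40, adjusted p 0.061), M0 replicate 3 (0.35, adjusted p 0.0915) or M1 replicate 1 (0.37, adjusted p 0.0777), and the M2 call did not stand without M0 replicate 1 (0.51, adjusted p 0.0501), M0 replicate 3 (0.46, adjusted p 0.0654) or M2 replicate 1 (0.46, adjusted p 0.127).

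The second Rbpj probe set was the steadier when arrays were left out. Probe set 1448957_at gave 1685.4, 1645.0 and 1872.1 units in M1, 1874.4 and 1967.3 units in M2, and 1036.0, 1348.1 and 1201.9 units in M0. Its log2 fold change was 0.54 in M1 against M0 (adjusted p 0.00428) and 0.69 in M2 against M0 (adjusted p 0.00345), and both calls stood whichever array was left out. Both were lost in the methods' t-test (adjusted p 0.0779 in M1 and 0.152 in M2). In M1 against M2 it was -0.15 (adjusted p 0.514), with both M2 arrays just above all M1 arrays.

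The third Rbpj probe set, 1418114_at, gave 611, 491 and 519 units in M1, 564 and 494 units in M2, and 337, 426 and 396 units in M0. It was again higher in every stimulated array than in any M0 array, by 0.49 in M1 (adjusted p 0.0132) and 0.46 in M2 (adjusted p 0.0492) on the log2 scale. The M1 call was lost without M0 replicate 1 (0.39, adjusted p 0.0604) or M1 replicate 1 (0.39, adjusted p 0.0609). The M2 call was lost without M0 replicate 1 (0.36, adjusted p 0.153), M0 replicate 2 (0.53, adjusted p 0.056), M0 replicate 3 (0.48, adjusted p 0.0907), M1 replicate 3 (0.46, adjusted p 0.0571), M2 replicate 1 (0.36, adjusted p 0.265) or M2 replicate 2 (0.55, adjusted p 0.0833). The methods' t-test called none of the 3 Rbpj probe sets in M1 or M2 against M0. Its adjusted p for 1418114_at was 0.12 in M1 and 0.252 in M2, and for 1454896_at 0.118 and 0.207. The 3 Rbpj probe sets correlated at 0.88 to 0.91 over the arrays.

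Hes1 and Hey1, the target genes that encode repressors, did not differ beyond the spread between arrays. Hes1 (1418102_at) gave 33.3, 25.8 and 37 units in M1, 28.7 and 28.5 units in M2, and 28.2, 27.2 and 27.7 units in M0, below the array's median throughout. M1 replicate 2 was the lowest of the 8 arrays and the other M1 arrays were the highest, so M1 spanned the rest. The means were 32 ± 5.68 units in M1, 28.6 ± 0.174 units in M2 and 27.7 ± 0.494 units in M0 (SD, n = 3, 2 and 3). In log2 terms Hes1 differed by 0.19 in M1 (95% interval -0.08 to 0.47, adjusted p 0.362) and 0.05 in M2 (95% interval -0.26 to 0.35, adjusted p 0.897), and without M1 replicate 2 the M1 value was 0.34 (adjusted p 0.0435).

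Hey1 (1415999_at) gave 53.5, 69.2 and 58.6 units in M1, 61.9 and 63.6 units in M2, and 60.1, 61.1 and 53.9 units in M0. M1 replicate 2, the lowest array for Hes1, was the highest for Hey1 and the only array above 64 units. Hey1 was therefore among the dim probe sets that an alternative left out, although it was above the array's median throughout. Its log2 fold change was 0.04 in M1 against M0 (95% interval -0.20 to 0.29, adjusted p 0.861) and 0.11 in M2 against M0 (95% interval -0.17 to 0.38, adjusted p 0.692).

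Dtx4, a Deltex-family ubiquitin ligase that acts on the Notch pathway, was measured by a pair of probe sets that differed in M2. Probe set 1436545_at gave 619, 492 and 790 units in M1, 785 and 745 units in M2, and 489, 470 and 422 units in M0. Probe set 1455711_at gave 439, 386 and 427 units in M1, 196 and 232 units in M2, and 281, 259 and 291 units in M0. In M2 the first was above all M0 arrays and the second below all of them, while in M1 both were above.

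For 1436545_at the log2 fold change in M2 against M0 was 0.73 (SE 0.17, 95% interval 0.37 to 1.10, adjusted p 0.0124), a call that did not stand without M2 replicate 1 (0.70, adjusted p 0.0906) or M2 replicate 2 (0.77, adjusted p 0.0626). For 1455711_at it was -0.37 (95% interval -0.63 to -0.11, adjusted p 0.0632), which did not pass the test. In M1 against M0, 1455711_at was higher by 0.59 (SE 0.11, adjusted p 0.00148), and 1436545_at gave 0.44 (95% interval 0.11 to 0.76, adjusted p 0.0604), or 0.61 without M1 replicate 2 (adjusted p 0.00675). Other settings moved both uncalled values past the threshold: 1455711_at in M2 after quantile normalization (-0.44, adjusted p 0.0431) or without dim probe sets (-0.37, adjusted p 0.0368), and 1436545_at in M1 with an intensity trend (0.44, adjusted p 0.0462), median centring (0.47, adjusted p 0.04) or without dim probe sets (0.44, adjusted p 0.0428).

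Against M2, 1455711_at was higher in M1 by 0.97 (adjusted p 8.2e-05), while 1436545_at gave -0.30 (adjusted p 0.28), or -0.47 without M1 replicate 3 (adjusted p 0.0378). The Dtx4 pair correlated at -0.09 over the 8 arrays, against 0.93 for the Notch1 pair. The part of the transcript that each reads was not used here, so no single M2 direction is given for Dtx4.

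**Figure D3:**
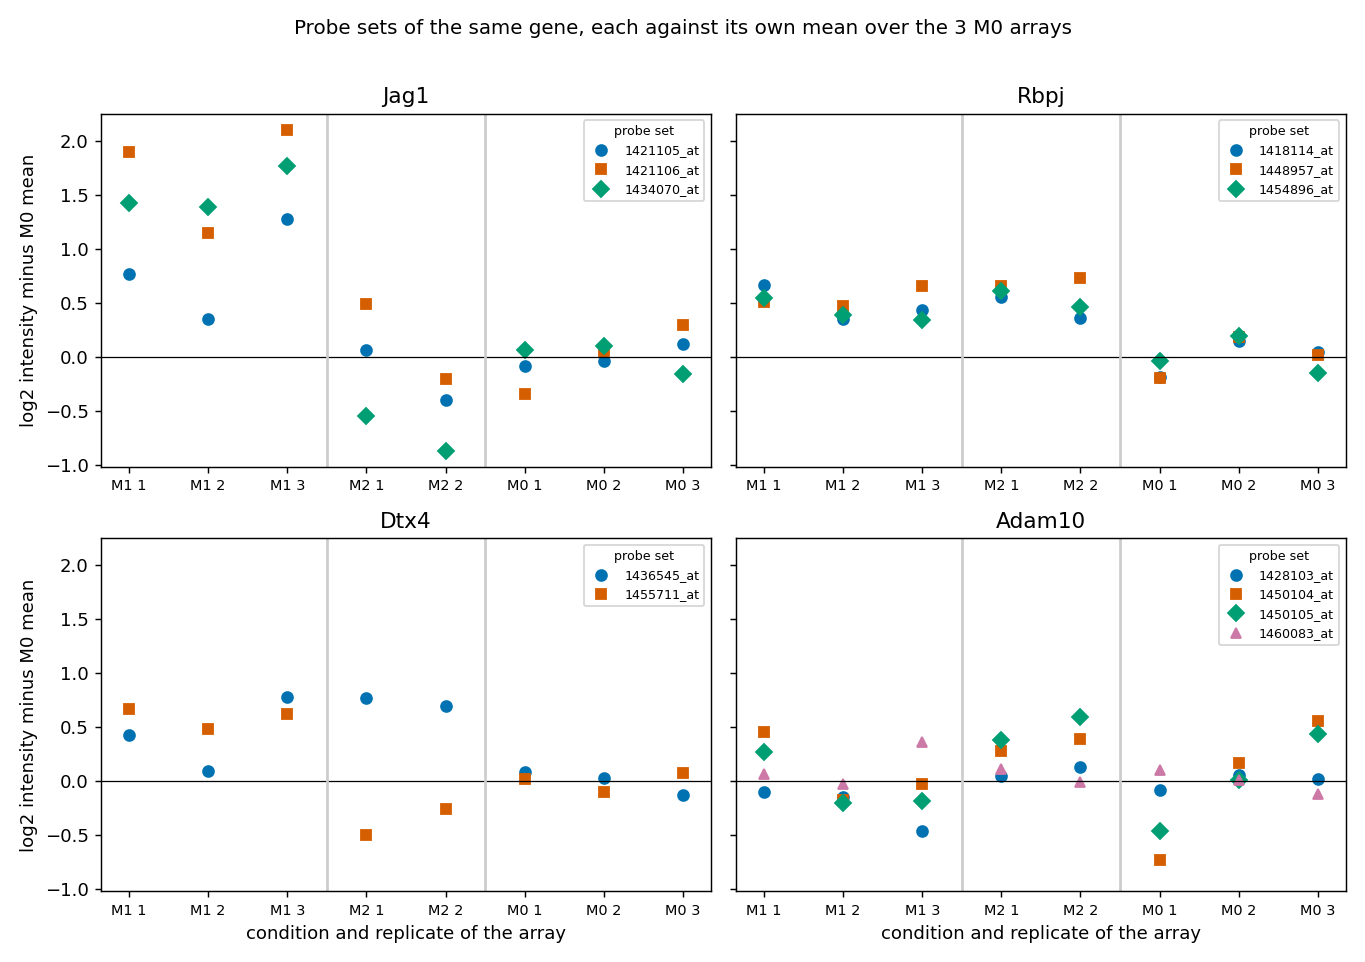
Log2 intensity minus the probe set's own M0 mean (y axis, log2 units) on each array in M1, M2 and M0, with 1 line of points for each probe set of Jag1, Rbpj, Dtx4 and Adam10. The 3 Jag1 probe sets are raised in M1 and the 3 Rbpj probe sets in M1 and M2, and the Dtx4 probe sets part in M2, where 1 is above 0 and 1 below it. The Adam10 points lie on both sides of 0 in M1 and mostly above it in M2, and no Adam10 probe set was called.

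The genes whose pattern over the 8 arrays was most like that of Notch1 and Jag1, the members changed at least 2-fold, are given as a description. They were sought among the 2862 genes whose brightest probe set ranged over at least 1 log2 unit. For Notch1 they were C130050O18Rik (Pearson r 0.992, log2 fold change 1.00 in M1 and -0.67 in M2 against M0), Tmem63a (0.991, with 0.73 in M1 and -0.32 in M2) and Nxpe3 (0.990, with 0.86 in M1 and -0.43 in M2). For Jag1 they were Sephs2 (0.995, with 1.82 in M1 and -0.67 in M2), Hcls1 (0.995, with 1.16 in M1 and -0.38 in M2) and Gpr18 (0.995, with 3.13 in M1 and -1.40 in M2). All 6 had M1 above and M2 below M0, and the 8 arrays fall into 3 conditions, so such values mainly follow the order of the conditions.

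Other genes of the pathway were taken from a list of 66 genes, of which 61 were found, each read by its brightest probe set. In M1 against M0, 6 were higher and 7 lower, while 48 did not pass the test, against 13.7% higher and 11.5% lower over all named genes. In M2 against M0, 1 was higher and 8 lower, while 52 did not pass, against 8.03% higher and 6.43% lower over all named genes. The medians were -0.01 in M1 and -0.01 in M2. Without M1 replicate 1 the lower genes in M1 numbered 4, and without M2 replicate 2 the lower genes in M2 numbered 4.

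Receptors are given their sugar chains and a maturing cut on the way to the surface, and of 9 genes of glycosylation and maturation 1 was higher and 3 were lower in M1 and 2 were lower in M2. Lfng, a Fringe enzyme that adds sugars to the Notch extracellular domain, gave 96.2, 112 and 86.6 units in M1, 161 and 139 units in M2, and 226, 237 and 246 units in M0. The conditions did not overlap, and Lfng fell by 1.27 in M1 (adjusted p 7.1e-06) and by 0.66 in M2 (adjusted p 0.0051) on the log2 scale, the M2 call being lost without M2 replicate 2 (-0.55, adjusted p 0.0632). A second Lfng probe set fell by 1.05 in M1 (adjusted p 6.2e-04) and by 0.87 in M2 (adjusted p 0.00935). Mfng, another Fringe enzyme, gave 0.31 in M1 (adjusted p 0.0822) and fell by 0.70 in M2 (adjusted p 0.00349). Poglut1, which adds glucose to the receptor, rose by 0.83 in M1 (adjusted p 5.9e-05), with 0.18 in M2 (adjusted p 0.369). The other called genes of this group, Pofut1 and Rfng, named after their values were seen as are Adam17, Mib2 and Numb below, were lower in M1 at -0.34 (adjusted p 0.0424) and -0.38 (adjusted p 0.0387), and both calls were lost without any M0 array or without M1 replicate 1 or 3 (adjusted p 0.0539 to 0.165).

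Of the 6 receptor cleavage genes other than Adam10, 2 were higher in M1 (Psen2, and Adam17 at 0.41, adjusted p 0.0101), and 3 were lower in M2. Psen2, a catalytic subunit of γ-secretase, gave 2209.0, 2465.6 and 2154.3 units in M1, 840 and 818 units in M2, and 1566.5, 1352.1 and 1256.6 units in M0. It was thus higher in M1 by 0.71 (adjusted p 4.5e-04) and lower in M2, at -0.74 (adjusted p 0.0016), and its dimmer probe set, at 36.9 to 47.1 units, gave 0.08 and 0.09 (adjusted p 0.727 and 0.773). Aph1b and Psenen, further subunits of the complex, were lower in M2, at -0.47 (adjusted p 0.0188) and -0.42 (adjusted p 0.0163). Neither of those calls stood without M2 replicate 1 (adjusted p 0.064 for Aph1b and 0.0764 for Psenen) or M2 replicate 2 (0.108 and 0.0673), and both were also lost without M0 replicate 3 (0.0585 and 0.0634), and that of Aph1b without M0 replicate 2 (0.0802). The other Aph1b probe set gave -0.46 in M2 (adjusted p 0.101).

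Among 14 genes of ubiquitination and traffic, 2 were higher and 1 was lower in M1, and 3 were lower in M2. Dtx2, a relative of Dtx4, gave 2431.1, 2528.0 and 2345.1 units in M1, 491 and 523 units in M2, and 590, 484 and 406 units in M0. M1 stood apart from both others, with a log2 fold change of 2.32 against M0 (SE 0.13, adjusted p 1.2e-07) and 2.30 in its other probe set, while M2 gave 0.06 (adjusted p 0.875). Neurl3, of the Neuralized family, and Dtx3l, another Deltex relative, were lower in M2, at -1.85 (adjusted p 7.3e-06) and -1.27 (adjusted p 2.3e-04), with -0.31 (adjusted p 0.163) and 0.21 (adjusted p 0.381) in M1. The other Dtx3l probe set gave -0.81 in M2 (adjusted p 0.00344) and 0.34 in M1 (adjusted p 0.0965). Without M1 replicate 2, Neurl3 gave -0.44 in M1 (adjusted p 0.0438). Numb, an inhibitor of Notch, was lower in M1 at -0.87 (adjusted p 5.1e-05) and in M2 at -0.52 (adjusted p 0.0091), the M2 call lost without M2 replicate 2 (adjusted p 0.0573). Mib2, a ligase for the ligands, was higher in M1 at 0.43 (adjusted p 0.0291), a call lost without M0 replicate 2 or 3 or M1 replicate 1 or 3 (adjusted p 0.0523 to 0.134).

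In the nucleus, Kat2a, an acetyltransferase and the 1 called of 7 coactivators, was lower in M1, at -0.48 (adjusted p 0.013), a call lost without M0 replicate 1 (-0.43, adjusted p 0.0541) or M1 replicate 1 (-0.36, adjusted p 0.0562). Its other probe sets gave -0.92 (adjusted p 8.0e-04) and -0.28 (adjusted p 0.124) in M1. Of 10 corepressors, 2 were lower in M1, Tle4 at -0.72 (adjusted p 2.2e-04) and Ctbp1 at -0.38 (adjusted p 0.00872), and 1 was higher in M2. The dimmer Tle4 probe sets gave -0.32 (adjusted p 0.415) and -0.27 (adjusted p 0.0924) in M1, which did not pass. The gene higher in M2, Tle1, a Groucho-family corepressor, gave 173, 156 and 195 units in M1, 386 and 473 units in M2, and 211, 177 and 197 units in M0. Both M2 arrays were above all the others, at 1.14 in M2 (adjusted p 1.5e-04) and -0.16 in M1 (adjusted p 0.458). Its second probe set gave 1.98 in M2 (adjusted p 1.2e-06) and -0.55 in M1 (adjusted p 0.00499).

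Of 7 other receptors and ligands, 1 was called, Dner, a Delta-like membrane protein, which was higher in M1 by 0.54 (adjusted p 0.00385), with -0.41 in M2 (adjusted p 0.0558), or -0.41 without M1 replicate 2 (adjusted p 0.0439). This probe set ran from 36.9 to 78.5 units. Its M1 call was lost in the methods' t-test (adjusted p 0.0704) and with values under 64 units set to 64 (0.20, adjusted p 0.218). The dimmer Dner probe set, at 7.6 to 24.5 units and below the array's median throughout, was called in both. It was higher in M1 by 0.83 (adjusted p 3.5e-04) and lower in M2, at -0.66 (adjusted p 0.00739). None of 8 further HES, HEY and target genes was called by limma in M1 (0) or M2 (0), with 0 at an unadjusted p under 0.05 in both and 0 by the methods' t-test. These were Hes2, Hes3, Hes5, Hes6, Hes7, Hey2, Heyl and Nrarp, with log2 fold changes of -0.22 to 0.20 in M1. Hes6 gave 162 to 193 units. The others were dim, at 5.84 to 62.2 units and so under 64 units on every array. Of these, Hes2 and Hey2 stayed below the array's median throughout.

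**Figure D4:**
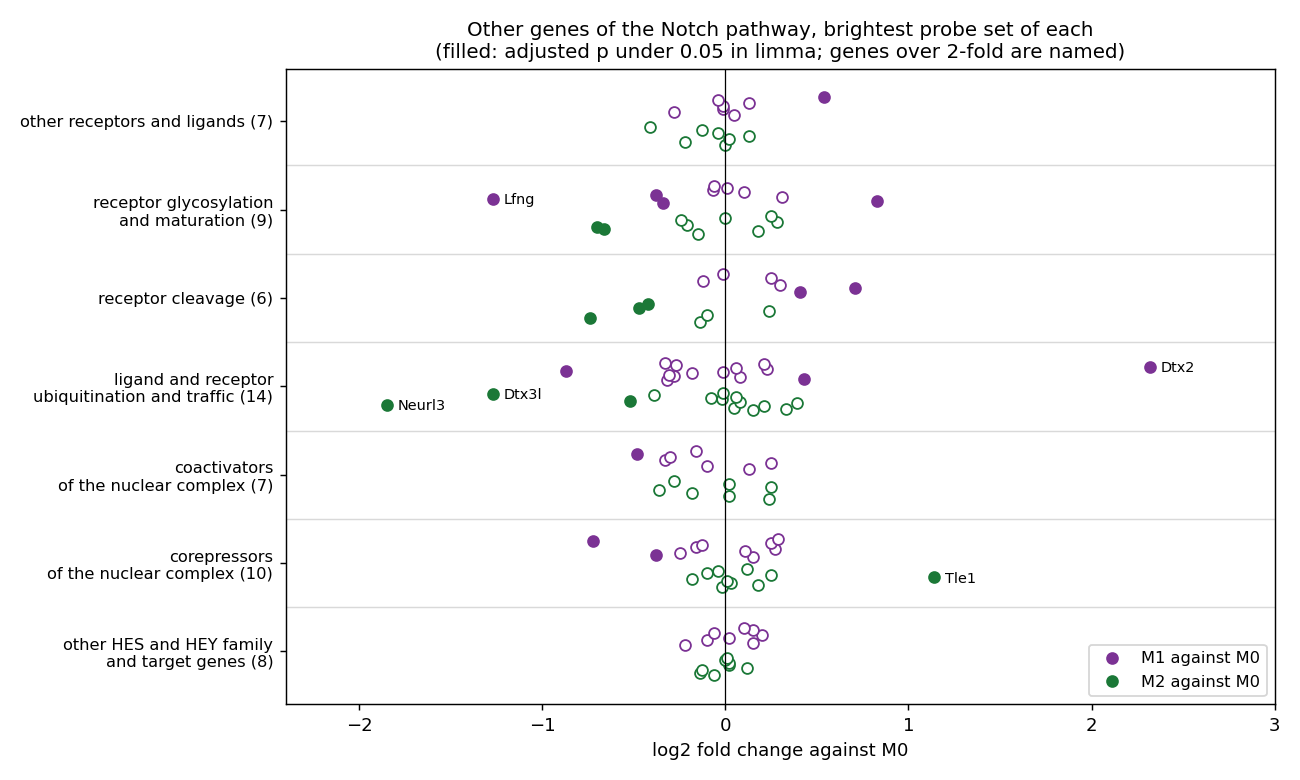
Log2 fold change (x axis, log2 units) in M1 against M0 and M2 against M0 of the 61 further pathway genes found, in 7 groups by role (y axis), with filled points at an adjusted p under 0.05. Dtx2 in M1 stands farthest to the right at 2.32, Neurl3 in M2 farthest to the left at -1.85, and the 8 HES, HEY and target genes have no filled point.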

How the data were processed

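RNA from 8 cultures of mouse BMDM (M1, n = 3; M2, n = 2; M0, n = 3) was hybridized to Affymetrix Mouse 430 2.0 arrays. RMA, run by the authors, corrected background, equalized the intensity distributions and summarized the probes, and the deposited table holds linear intensity values. Log2 was taken of these deposited intensities, here called units. Of 45101 probe sets, 64 control probe sets were left out, so 45037 were tested. Depth has no meaning for arrays, whose number limits the precision.

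One mean per condition was fitted to all 8 arrays with limma 3.58.1 (R 4.3.3; lmFit and eBayes), which gave 5 residual and 6.95 prior degrees of freedom. P-values were adjusted by Benjamini-Hochberg over all 45037 probe sets, and a probe set was called at an adjusted p under 0.05. Fold changes are differences of mean log2 values. The script was tested on simulated data.

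Symbols came from GEO's platform annotation, in which 34945 probe sets carry 1 symbol, 932 several and 9160 are not listed. A gene with several probe sets was read by its brightest, with the others of the members and of most named genes of the wider list given beside it. Of each group of the wider list, up to 3 called genes with the largest change were named, and, for each member changed at least 2-fold, the 3 genes with the highest correlation. The motif TGGGAA was searched on both strands of RefSeq promoter windows. Members and lists were chosen with earlier results of these data known. Alternatives were the methods' t-test, fits without the third condition, a robust prior with an intensity trend, a replicate block, median centring, a second quantile normalization, values under 64 units set to 64, leaving out dim probe sets (those not above 64 units on at least 2 arrays), a 2-fold limit and leaving out each array. The arrays of the same replicate number were not treated as paired.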

Additional observations from a re-analysis of the deposited data

How the results depend on the processing

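Over 69 comparisons of a member probe set and 16 alternatives (the 2-fold limit not counted among them), 0 changed direction with a call on either side, 44 kept their side of the threshold throughout, and of 22 called, 5 were called under all 16 and 17 were lost under at least 1. Those 5 were both Notch1 probe sets, Jag1 1434070_at and Dtx4 1455711_at in M1 against M0, and Jag1 1434070_at in M1 against M2. Leaving out 1 array at a time gave 7 to 11 member probe sets in M1 against M0 (9 with all arrays), 2 to 6 in M2 against M0 (1 to 4 higher, 0 to 2 lower; 6 with all arrays) and 6 to 8 in M1 against M2 (7 with all arrays), of which 0 to 1 lower. In the wider list it gave 9 to 14 genes in M1 (4 to 8 lower) and 5 to 10 in M2 (4 to 9 lower). The methods' t-test called 5 member probe sets in M1 against M0 (5 higher), 0 in M2 against M0 (0 higher, 0 lower) and 1 in M1 against M2 (1 higher), and in the wider list 8 in M1 (4 lower) and 0 in M2 (0 higher, 0 lower); over all probe sets it called 2588 higher and 2460 lower in M1, 159 and 111 in M2, and 774 and 752 in M1 against M2, where limma called 4587 and 4588, 2848 and 2635, and 3994 and 4555. A lower limit of 64 units called 5 member probe sets in M1 against M0 (5 higher), 1 in M2 (1 higher, 0 lower) and 4 in M1 against M2 (4 higher), and in the wider list 4 lower in M1 and 2 higher and 5 lower in M2; over all probe sets it called 2672 and 2449, 1290 and 1027, and 2096 and 2448. It makes 24749 probe sets (55%) constant, which alters the variance shared by all. A 2-fold limit left 3 in M1 against M0 (3 higher), 0 in M2 (0 higher, 0 lower) and 4 in M1 against M2 (4 higher). Deviations of arrays from their condition's mean correlated at -0.172 to 0.0547 over 7 pairs with the same replicate number, against -0.15 to 0.19 over 14 other pairs. Such deviations sum to 0 within a condition, and those of the 2 M2 arrays are mirror images. This comparison therefore cannot decide whether arrays are paired. Although the titles carry 1 number across conditions, the labels do not say that it marks a mouse. With a replicate block, 3 member probe sets were called in M2 (2 higher, 1 lower). The calls it ended were Notch1 1418634_at (-0.48, adjusted p 0.0776), Rbpj 1454896_at (0.47, adjusted p 0.053), Rbpj 1418114_at (0.46, adjusted p 0.108), Aph1b (-0.44, adjusted p 0.0625) and Psenen (-0.41, adjusted p 0.0528) in M2 against M0, Pofut1 (-0.34, adjusted p 0.0777), Rfng (-0.38, adjusted p 0.054) and Mib2 (0.43, adjusted p 0.052) in M1 against M0, and Notch2 1455556_at (0.39, adjusted p 0.105), Numb (-0.33, adjusted p 0.103) and Kat2a (-0.50, adjusted p 0.0523) in M1 against M2. Notch4, Dll4 and Hes1 lay below the array's median throughout, Hey1 was above 64 units only in M1 replicate 2, and every M2 value rests on 2 arrays.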
